A study of Homo sapiens with 42 samples.

Results

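The 246 protein-coding genes of human chromosome 19 whose symbol is ZNF with a number were followed across chromatin accessibility maps of 7 cancer cell lines. They were taken by symbol and chromosome from the RefSeq gene table of GRCh38, out of 19974 protein-coding genes. The table also holds 1205 other genes of chromosome 19 and 263 numbered ZNF genes elsewhere. Accessibility was measured by ATAC-seq, in which a transposase cuts open DNA and sites with many cuts are called as peaks. The 42 samples came from the prostate adenocarcinoma line 22RV1, the colorectal adenocarcinoma line HCT116, the acute myeloid leukemia line MV411, the melanoma line A375, the uveal melanoma line 92-1, the rhabdomyosarcoma line RD and the invasive breast carcinoma line DU4475. Each line was labelled WT and kept for 4 h in DMSO or in FHT-1015. FHT-1015 is labelled as inhibiting SMARCA4 together with SMARCA2, which drive the BAF chromatin remodeller by hydrolysing ATP, and DMSO is labelled the negative control. Each line had 3 biological replicates per treatment. Nothing in the labels says that these were separate cultures, so p-values measure the spread between these samples, which may be technical. Each line is 1 tumour line, so a difference between lines is a difference between these lines and not between tumour types.

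Most of these genes encode proteins with a KRAB domain followed by an array of C2H2 zinc fingers, the largest family of transcription factors in the human genome. The fingers read DNA, often within transposable elements, and the KRAB domain calls the corepressor TRIM28, which brings the histone methyltransferase SETDB1 and HP1 proteins and so silences the site. The genes arose by repeated tandem duplication and lie in dense blocks on chromosome 19, where the gene bodies themselves are known to carry heterochromatin marks.

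Here the 246 genes fell into 16 blocks when gaps of up to 1 Mb were bridged, and 7 blocks with at least 15 genes each held 225 of them. Their median length was 23151.5 bp, against 24170.5 bp over all protein-coding genes. At 43 genes an end lay within 1 kb of an end of another gene, so their calls there are shared. A peak was assigned by its summit, within 1 kb of either outer end of a gene or inside the rest of the gene body. A strict peak had a −log10 q of at least 5. A gene end is called open in a line when all 3 DMSO samples had a strict peak, and closed when none of the 3 had any deposited peak, however weak. The reference lists a transcription start for 216 of the 246 genes. For 29 of these every listed start lay more than 1 kb inside the outer ends, so the listed starts were also scored on their own. Other genes have several listed starts, of which only some lie at an outer end. One is ZNF565, with a strict peak at its outer ends in 2 samples and at its 3 listed starts in 40.

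The sequences next to the starts show how alike these genes are, and they are shown because they mark the block whose closed share ranged most widely between lines among the 7 blocks with at least 15 genes. The block from ZNF101 to ZNF254 held 37 genes, of which 29 have a listed start. The 9 letters GGCTTCCGG, searched on both strands, occurred within the 300 bp promoter (250 bases before to 50 after the start) of 21 of these 29 genes, which is 72.4%. They occurred in 2.14% of the 187 promoters of the other blocks and in 1.69% of 15812 promoters of all genes. These letters were not in the fixed list of motifs but were added to extend the shorter core CTTCCGG, so their contrast describes and does not test. The shorter core was in 72.4% of the 29 promoters, in 41.2% of the 187 and in 14.2% of all. The 50 bases before the start are given for 9 genes of the block, each carrying the letters. As a contrast without them ZNF792 is shown, whose gene end was lost in 2 lines. The sequences are from RefSeq on GRCh38.p14, 5′ to 3′ on the strand of the gene, and capitals mark CTTCCGG, the reverse complement of the ETS-type core CCGGAAG:
ZNF254, chr19:24087137-24087186, plus strand: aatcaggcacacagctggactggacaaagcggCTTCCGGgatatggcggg
ZNF430, chr19:21020607-21020656, plus strand: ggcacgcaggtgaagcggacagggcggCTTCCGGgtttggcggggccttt
ZNF431, chr19:21141990-21142039, plus strand: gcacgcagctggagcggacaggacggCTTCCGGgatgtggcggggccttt
ZNF43, chr19:21836183-21836232, minus strand: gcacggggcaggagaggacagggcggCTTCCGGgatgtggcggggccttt
ZNF208, chr19:22010944-22010993, minus strand: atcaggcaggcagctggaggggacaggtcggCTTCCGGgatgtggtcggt
ZNF257, chr19:22052434-22052483, plus strand: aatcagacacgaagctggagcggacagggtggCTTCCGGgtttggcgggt
ZNF492, chr19:22634274-22634323, plus strand: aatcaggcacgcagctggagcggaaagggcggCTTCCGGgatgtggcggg
ZNF724, chr19:23250395-23250444, minus strand: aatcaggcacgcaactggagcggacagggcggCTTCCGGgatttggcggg
ZNF91, chr19:23395472-23395521, minus strand: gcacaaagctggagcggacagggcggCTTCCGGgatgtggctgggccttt
ZNF792, chr19:34964230-34964279, minus strand: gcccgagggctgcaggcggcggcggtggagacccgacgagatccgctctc

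The first base of the marked core lay 18 bases before the start in ZNF254, ZNF257, ZNF492 and ZNF724, 19 in ZNF208, 23 in ZNF430 and 24 in ZNF431, ZNF43 and ZNF91. ZNF254 shared an unbroken run of 14 letters with ZNF43, ZNF492, ZNF724 and ZNF91 in this window, and of 5 letters with ZNF792. The core in either orientation was in 45.4% of the promoters of the 216 genes, in 34.1% of 214 promoters of ZNF genes of other chromosomes and in 14.2% of all. It lay within the 50 bases before the start in 24.5% of the 216 and in 5.93% of all. ETS proteins are transcription factors that bind such GGAA-centred sites. A CCAAT box (CCAAT) was in 29 of the 29 promoters of the block, in 53.7% of the 216 and in 36.3% of all. A GC box (GGGCGG) was in 67.6% of the 216 and in 58.5% of all, and a TATA box (TATAAA) in 1.85% and 9.64%. The E-box CACGTG was in 4.17% of the 216 and in 8.87% of all, TGANTCA of AP-1 in 6.48% and 5.76%, the CRE TGACGTCA in 3.24% and 2.59%, and GATGGCG of YY1 in 6.94% and 5.71%. The core of the NRF1 motif was in 12.5% of the 216 and in 8.59% of all. Each motif was searched on both strands, and overlapping matches of different motifs were each counted. A match is a description of letters and not a bound site. Genes with near-identical sequence can share reads, and how the authors placed such reads is not known here, so values within the block are uncertain to that extent.

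The state of the gene ends differed between the lines. In 22RV1, 185 of the 246 genes were open (75.2%, against 59.7% of all genes) and 20 were closed (8.13%, against 10.3%). In DU4475, 114 were open (46.3%, against 56.3%) and 113 were closed (45.9%, against 19.1%). So most genes in DU4475 were either open in 3 of 3 samples or without a peak in 3 of 3. MV411 had 161 open (57.5% of all genes) and 55 closed (21.7% of all), RD 147 open (52.3%) and 34 closed (15.8%), and HCT116 61 open (36.8%) and 52 closed (15%). A375 had 71 open (41.7%) and 36 closed (18.2%), and 92-1 had 35 open (17.4%) and 13 closed (7.93%). DU4475 also had the deepest samples by the local background of its peaks, 2.13 ± 0.233 reads (SD, n = 3) in DMSO, against 0.212 to 1.04 for the means of the other lines. The lists were not alike in form. The peak names of 92-1, 22RV1, HCT116 and MV411 carry the word small, which the labels do not explain, and the median peak width was 192 to 240 bp in their samples and 273 to 429 bp in those of RD, A375 and DU4475. How a list was made and the line it came from cannot be told apart between these sets. Within the second set, 113 genes were closed in DU4475, 34 in RD and 36 in A375. The lead of DU4475 also depended on what counts as closed. When a gene only had to lack a strict peak in 3 of 3 DMSO samples, the share was 50.4% in DU4475 (38.9% of all genes) and 50% in HCT116 (44.6% of all). Among the 10000 strongest peaks it was 80.5% in DU4475 (63.8% of all) and 85% in MV411 (77.6% of all). A peak call is made over the whole culture, so a weaker peak in every cell and a peak in fewer cells cannot be told apart.

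**Figure D1:**
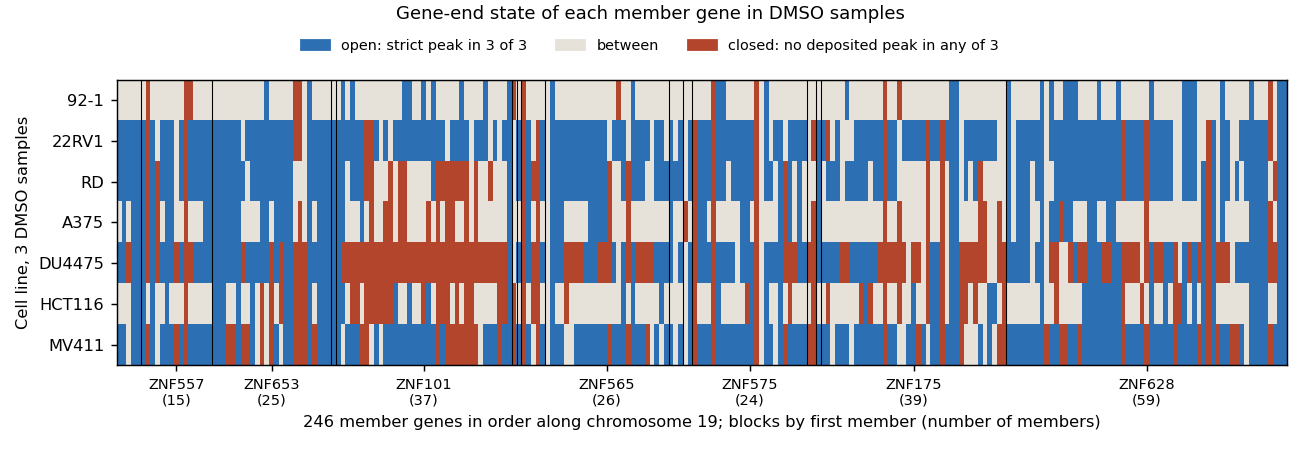
Each column is 1 of the 246 genes in order along the chromosome and each row a line with its 3 DMSO samples; blue marks open, red closed and grey the rest, and vertical lines part the 16 blocks. The red stretch in DU4475 is the run from ZNF14 to ZNF726 (35 genes).

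A gene could be open in one line and closed in another. This held for 89 of the 246 genes (36.2%), against 12.6% of all genes, 7.47% of the other genes of chromosome 19 and 12.9% of the ZNF genes of other chromosomes. Closed in DU4475 and open in 22RV1 were 68 genes (27.6%, against 2.98% of all), and open in DU4475 and closed in 22RV1 was 1 gene (0.19% of all). Closed in DU4475 and in no other line were 41 genes (16.7%, against 2.77% of all genes), while 8 were closed in MV411 alone (4.23% of all) and 5 in HCT116 alone (1.27% of all). There was 1 in A375 (1.86%), 1 in 92-1 (0.556%), 0 in 22RV1 (0.431%) and 0 in RD (1.09%). Of the 246, 74 were closed in DU4475 and open in another line (4.99% of all), 45 were open in no line (28.1% of all) and 114 closed in no line (61.9% of all). Open in 7 of 7 lines were 9 genes (12.3% of all genes): ZNF443, ZNF254, ZNF146, ZNF816, ZNF160, ZNF787, ZNF8, ZNF324 and ZNF446. Closed in 7 of 7 at their outer ends were ZNF560, ZNF302, ZNF404, ZNF225 and ZNF610. ZNF302 and ZNF225 had a strict peak at their listed inner start in 37 and 38 of the 42 samples, and ZNF404 had none at its start in any sample.

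Scored at the 216 listed starts, DU4475 kept the largest closed share among the 7 lines. There 79 of 216 starts were closed (36.6%), against 19.5% over all genes with a listed start. In the other lines the closed share of the 216 ran from 2.31% in 22RV1 to 19% in HCT116. Open in 1 line and closed in another at the start were 83 of the 216 (38.4%), against 12.4% of all.

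**Figure D2:**
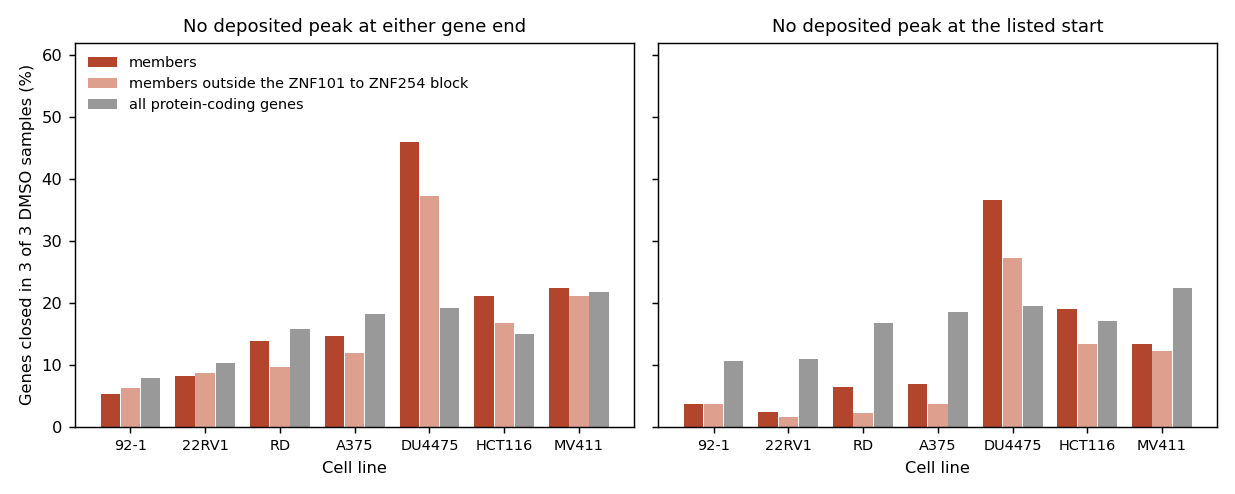
Bars give the percent of genes without a deposited peak in any of 3 DMSO samples, per line, at the outer gene ends (left) and at the listed start (right). DU4475 stands at 45.9% and 36.6% for the 246 and 216 genes, and at 37.3% and 27.3% outside the ZNF101 to ZNF254 block, against 19.1% and 19.5% of all genes.

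Among the 7 large blocks, that from ZNF101 to ZNF254 (chr19:19668153-24129968) had the widest range of closed shares, from 0% in 92-1 to 94.6% in DU4475. In the other 6 the highest closed share of any line was 25% to 51.3%. In DU4475 35 of its 37 genes were closed, and these were neighbours without a break, from ZNF14 to ZNF726 (chr19:19710472-23944714, 4.23 Mb). The flanking ZNF101 and ZNF254 were open there. In 22RV1 29 of the 37 were open and 2 closed, in MV411 22 were open and 11 closed, and in 92-1 9 were open and 0 closed. Closed genes outnumbered open ones in RD (14 to 7), HCT116 (17 to 6) and A375 (11 to 4). The longest closed run of any other line was 7 genes, ZNF208 to ZNF99 in RD and ZNF676 to ZNF728 in MV411. Outside the block DU4475 still had 78 of 209 genes closed (37.3%), against 6.22% to 21.1% in the other lines.

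The missing peaks in DU4475 were not limited to gene ends. Over the stretch from ZNF14 to ZNF726 the 6 DU4475 samples had 8 to 15 deposited summits each, 8 in each of the 3 DMSO samples and 12 to 15 with FHT-1015. The 36 samples of the other lines had 37 to 492. Of strict summits DU4475 had 1 in each of the 6 samples, always between 19776539 and 19776584, and the other lines had 2 to 92. The stretch held 0.116% to 0.228% of the deposited chromosome 19 summits of a DU4475 sample and 1.06% to 5.64% of those of any other sample. The 2 other protein-coding genes inside it, LOC124904660 and RPSA2, were closed in DU4475 as well. Peak lists hold no count of DNA copies, so the copy number of this stretch in DU4475 was not tested.

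**Figure D3:**
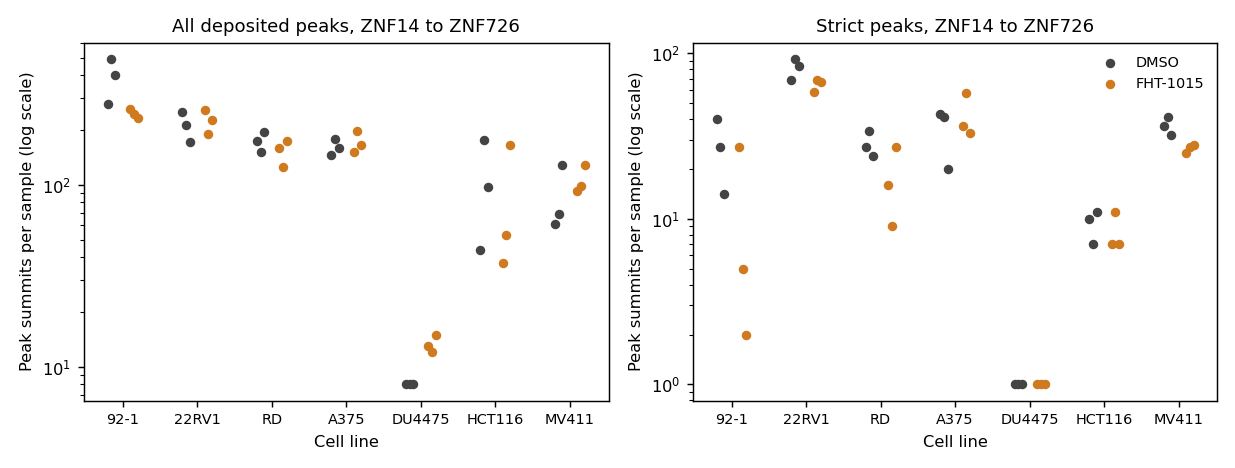
Points are samples, and the vertical log axes give the number of deposited (left) and strict (right) peak summits between ZNF14 and ZNF726. The 6 DU4475 samples lie at 8 to 15 and at 1, below each sample of the other lines.

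ZNF43 shows the pattern in 1 gene. The fold enrichment of its strongest gene-end peak, as the authors deposited it, was 17.7, 23.3 and 24.6 in the DMSO samples of 22RV1 and 13.3, 16.8 and 16.9 in those of MV411. It was 10.7, 12.7 and 11.0 in RD, 21.4, 8.44 and 6.15 in 92-1, and 7.84, 9.26 and 3.99 in A375, where the last was not strict. HCT116 had a single weak peak of 3.90 in 1 DMSO sample, and DU4475 had no peak in any of 6 samples. ZNF43 with FHT-1015 stood at 22.3, 25.5 and 19.2 in 22RV1 and at 13.9, 14.9 and 14.5 in MV411, which overlapped the DMSO values in both lines. In RD ZNF43 had 8.35, 7.53 and 9.39 with FHT-1015, each below the DMSO values.

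ZNF254, next to the run, was open at its outer end in 7 of 7 lines. Its strongest gene-end peak in DU4475 had a fold enrichment of 12.0, 8.70 and 7.96 in DMSO and 7.68, 9.5 and 9.94 with FHT-1015. The listed start of ZNF254, 42781 bp from the nearest outer end and carrying the printed sequence, had a strict peak in 17 of the 42 samples and was closed in DU4475 and HCT116. In DU4475 the starts of all 21 genes of the block with the letters GGCTTCCGG were without a deposited peak in the 3 DMSO samples and also in the 3 FHT-1015 samples. In 22RV1 17 of these 21 starts were open and in MV411 15, while in RD and A375 0 were open and 8 and 7 were closed. The 8 starts of the block without the letters were closed in DU4475 at 7 genes. The stretch from ZNF14 to ZNF726 had almost no peaks of any kind in DU4475, so a link of state and letters was not tested there.

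Outside the block the ETS-type core was in 52.9% of the 51 promoters whose start was closed in DU4475 and in 35.2% of the 122 whose start was open. Over all genes the order was the opposite, with the core in 4.91% of closed and 20.4% of open starts. In MV411 the core was in 21.7% of the 23 closed and 44.8% of the 143 open starts outside the block. The other lines went both ways on few closed starts. The closed and open shares there were 57.1% of 7 and 39.0% of 77 in A375, and 50% of 4 and 38.9% of 149 in RD. They were 42.9% of 7 and 36.4% of 33 in 92-1, and 32% of 25 and 34.9% of 63 in HCT116. In 22RV1 they were 0% of 3 and 41.6% of 161. The promoters of the genes closed at their ends in DU4475 held a median of 17 CpG and those of the open ones 22. Outside the block these medians were 20 and 22.

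The remaining large blocks were mixed within themselves. In DU4475 closed genes numbered 12 of 26 in the block from ZNF565 to ZNF573, 20 of 39 from ZNF175 to ZNF331, 23 of 59 from ZNF628 to ZNF446, 6 of 25 from ZNF653 to ZNF791, 6 of 24 from ZNF575 to ZNF296 and 5 of 15 from ZNF557 to ZNF846. The longest open runs were 15 genes in 22RV1 (ZNF582 to ZNF17) and 14 in RD (ZNF583 to ZNF17), both inside the block from ZNF628 to ZNF446. Among 245 neighbouring pairs, 1 gene open next to 1 closed was counted 67 times in DU4475, 70 in MV411, 29 in 22RV1 and 32 in RD.

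A list of 15 studied genes split the same way. ZNF91 and ZNF93, which are known to silence SVA and LINE-1 retrotransposons, were closed in DU4475 together with RD and with HCT116, respectively. ZNF91 was open in MV411 alone, and ZNF93 in 22RV1, RD and MV411. Both had been counted in the run described above. At their outer ends, ZNF382, described as a tumour suppressor, ZNF568, whose mouse counterpart represses a placental Igf2 transcript, and ZNF350, a partner of BRCA1, were closed in DU4475 and in no other line, though the listed start of ZNF382 was closed in HCT116 too. Open there were ZNF146, which lacks a KRAB domain, ZNF224, ZNF180, ZNF274, ZNF296 and ZNF571. ZNF274 brings SETDB1 to the ends of other zinc finger genes. ZNF808, known for a role in pancreas development, was open in 22RV1 and MV411 and closed in no line. ZNF420, ZNF331 (an imprinted gene) and ZNF536 (a regulator of neuronal differentiation) were open in no line at their outer ends. The listed starts of ZNF420 and ZNF331 lay 51935 and 17779 bp inside the gene and were open in 5 and 4 lines and closed in 0. ZNF536 has 4 listed starts, which together had a strict peak in 23 of the 42 samples and were open in 3 lines and closed in 0. At the outer ends 7 of the 15, ZNF420 and ZNF331 among them, were closed in DU4475 (19.1% of all genes), 3 in HCT116 (15%), 3 in MV411 (21.7%), 2 in RD (15.8%), 1 in A375 (18.2%), 1 in 92-1 (7.93%) and 0 in 22RV1 (10.3%).

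Of 11 genes known for DNA methylation of their promoters in tumours, 10 were closed in at least 1 line and 0 were open in 7. Closed in no line was thus 1 of the 11, against 61.9% of all genes and 46.3% of the 246, and open in 7 lines were 12.3% and 3.66%. ZNF471 had strict peaks in 3 of 3 DMSO samples of 92-1, 22RV1, RD and A375 and in 0 of 3 of DU4475, HCT116 and MV411, where MV411 was closed. ZNF582 was open in 92-1, 22RV1, A375 and MV411 and closed in DU4475. ZNF677 was open in 22RV1 and RD and closed in DU4475 and HCT116, and ZNF667 open in the same pair and closed in A375 and MV411. ZNF154 had no strict gene-end peak in any of the 42 samples and was closed in DU4475, HCT116 and MV411. ZNF577 was open in RD, DU4475 and MV411 and closed in 22RV1 and HCT116, and ZNF132 and ZNF671 were open in MV411 alone. ZNF418 and ZNF135 were open in no line and closed in MV411, and ZNF544 was the 1 gene of the 11 closed in no line. HCT116 had 0 of the 11 open, against 36.8% of all genes and 24.8% of the 246. These states are at the outer ends. At the listed start ZNF154 was closed in 22RV1, A375, DU4475, HCT116 and MV411, and ZNF667 in HCT116 and MV411. The start of ZNF418 was closed in DU4475 and MV411, that of ZNF132 in RD and DU4475, and that of ZNF135 in RD and MV411. ZNF671 was closed at its start in HCT116, and ZNF544 in no line. DNA methylation was not measured.

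Strict peaks were far more common at the starts of these genes than at their far ends. Of the 216 genes with a listed start, 211 (97.7%) had a strict peak within 1 kb of it in at least 1 sample and 13 (6.02%) had one at the far end, against 84.4% and 27.1% over all genes. In the gene bodies 149 of the 246 (60.6%) had no strict peak in any of the 42 samples, against 27.9% of all genes. These shares are not adjusted for length, and the bodies came to 6.69 Mb for the 246 genes and 1254 Mb for all 19974. Per length, MV411 bodies held 10.7 ± 0.525 strict summits per Mb (SD, n = 3 DMSO samples), against 37.9 ± 3.18 over all genes. In 22RV1 the values were 12.3 ± 0.824 and 20.2 ± 3.51, in DU4475 10.7 ± 0.674 and 13.6 ± 3.15, in HCT116 3.99 ± 0.0863 and 6.19 ± 0.447, and in RD 12.5 ± 1.29 and 10.9 ± 1.16. In RD, DU4475, A375 and 92-1 the difference was about as large as the spread between samples or smaller.

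Of the 5 densest bodies 4 had their only listed start inside the outer ends. ZNF575 had 0.600 strict body summits per kb and sample, ZNF302 0.215, ZNF581 0.196, ZNF584 0.118 and ZNF574 0.105. The listed start lay 2353 bp inside ZNF575, 1699 bp inside ZNF302, 1974 bp inside ZNF581 and 7091 bp inside ZNF584. ZNF574 has 2 listed starts, 1 of them at an outer end. It had a strict peak at a listed start in 39 samples but at its outer ends in 1, so its other start lies inside. Of the 5 longest genes, ZNF536 (487995 bp) had 3.98 strict body summits per sample, ZNF69 1.95, ZNF420 1.00, ZNF254 0.976 and ZNF91 0.0238.

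No gene of the 246 passed the threshold between FHT-1015 and DMSO. At the gene ends 222 could be tested, having a strict peak in at least 1 sample and none in another, with an exact stratified permutation test over the lines adjusted over all 16593 testable genes. None was called in fewer or in more FHT-1015 samples, as for all genes (0% each way). With 3 against 3 samples an exact test within 1 line cannot go below p = 0.1. A change limited to 1 line could thus not be called, and the absence of calls does not show absence of change. At an unadjusted p under 0.05 there were 4 in fewer FHT-1015 samples (5.27% of all tested genes) and 0 in more (0.0542%). Of the 222 genes 147 had fewer FHT-1015 samples with a strict peak (66.2%, against 74.9% of all) and 31 more (14%, against 10.9%). The median difference was -1 of 21 samples, the same as over all genes.

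The mean share of the 246 genes with a strict gene-end peak differed between treatments in the same direction as the share of all genes in 7 of 7 lines, though by less than the spread between samples in DU4475, HCT116, A375 and 92-1. In RD it was 64.0% ± 2.31 in DMSO and 46.7% ± 9.98 with FHT-1015 (SD, n = 3), against 56.8% and 43.0% for all genes. In MV411 it was 68.7% ± 0.813 and 64.8% ± 1.24, against 62.1% and 55.8% for all genes. In 22RV1 it was 80.8% ± 2.31 and 78.3% ± 1.43, with overlapping samples, while the share of all genes was 65.2% ± 1.83 and 59.0% ± 1.15 without overlap. HCT116 had 38.1% ± 2.38 and 40.0% ± 4.46 (all genes 46.2% and 48.2%), A375 49.1% ± 16.1 and 59.2% ± 12.1 (51.9% and 53.0%) and DU4475 48.2% ± 1.02 and 48.0% ± 1.08 (58.6% and 57.0%). In 92-1 the samples ranged from 19.9% to 64.2% in DMSO and were 48.4%, 4.47% and 0% with FHT-1015, where the numbers of strict peaks were 20254, 2037 and 1412. The groups of the 246 genes did not overlap in RD and MV411, where the mean number of strict peaks per sample was 45253 and 112752 in DMSO and 21025 and 53196 with FHT-1015. With pileups thinned at random to a common background within the line and called at a −log10 p of at least 5, the order in MV411 turned, to 58.4% ± 1.43 in DMSO and 62.9% ± 1.92 with FHT-1015 without overlap (all genes 54.0% and 54.3%). In RD the thinned share stayed lower with FHT-1015, at 56.4% ± 4.92 and 36.9% ± 7.68 without overlap (all genes 53.1% and 37.1%). Among the 30000 strongest peaks the share was 36.3% ± 1.64 and 56.6% ± 0.469 in MV411 (all genes 37.9% and 48.6%). In RD it was 54.9% ± 1.08 and 56.5% ± 1.22 (all genes 50.4% and 49.9%).

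**Figure D4:**
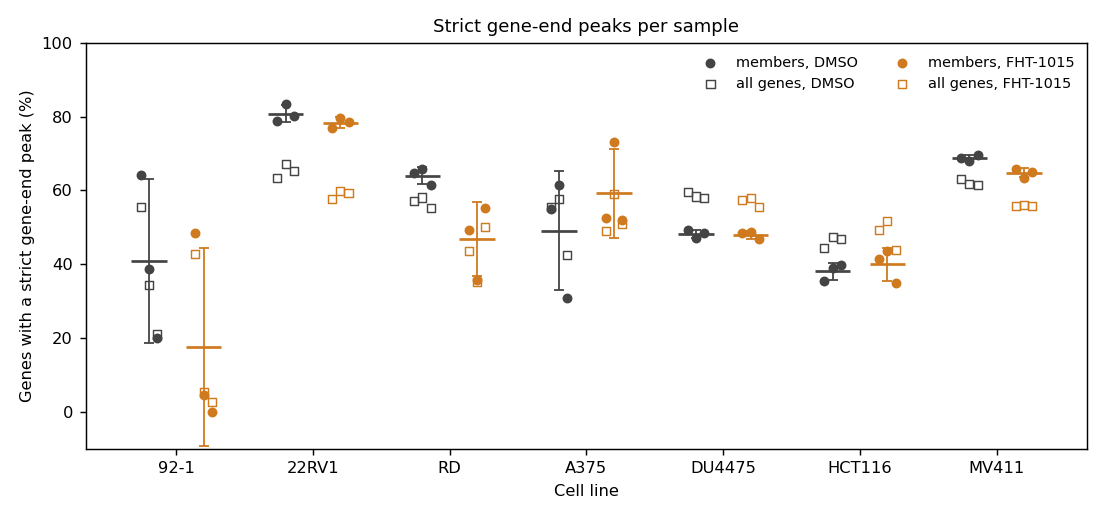
Filled points give the percent of the 246 genes with a strict gene-end peak in each sample, with mean and SD bars per group, and open squares the same for all protein-coding genes. The RD and MV411 groups part between treatments, and the 92-1 samples spread from 0% to 64.2%.

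Within single lines, a gene end was counted as lost when it had a strict peak in 3 of 3 DMSO and 0 of 3 FHT-1015 samples, and as gained in the reverse case. With 3 against 3 samples an exact test cannot go below p = 0.1. The loss count summed over lines was 16. RD had 10 (3.48% of all genes): ZNF439, ZNF792, ZNF461 and ZNF567, which share an end, ZNF780B, ZNF283, ZNF222, ZNF649, ZNF480 and ZNF552. Of the genes open in RD these were 6.8%, against 6.66% of all open genes. ZNF567 was counted by its outer ends. At its listed starts it had a strict peak in 18 DMSO and 19 FHT-1015 samples over the lines. In 92-1 ZNF816, ZNF416 and ZNF586 were lost (0.941% of all), in 22RV1 ZNF208 and ZNF792 (2.22%), and in HCT116 ZNF100 (0.2%). None was lost in MV411 (2.13% of all), A375 (0.125%) or DU4475 (0.215%). As a share of the genes open in the line, losses were 8.57% in 92-1 (5.41% of all open genes), 1.08% in 22RV1 (3.73%), 1.64% in HCT116 (0.545%) and 0% in MV411 (3.7%), A375 (0.3%) and DU4475 (0.382%). Scored at the listed starts, losses were 8 in RD (2.73% of all genes), 5 in 92-1 (0.801%), 2 in 22RV1 (1.56%) and 1 in HCT116 (0.17%). There were 0 in MV411 (1.31%), A375 (0.115%) and DU4475 (0.165%). The gain count was 1, ZNF784 in HCT116 (0.32% of all). The other lines had 0 gained genes, against 0.0401% of all in 22RV1, 0.00501% in RD, 0.14% in A375, 0.03% in MV411 and 0% in 92-1 and DU4475. Leaving out 1 sample moved the summed losses to 42 without 92-1 FHT-1015 replicate 1, to 32 without 92-1 DMSO replicate 3 and to 31 without RD FHT-1015 replicate 3. The other 39 such counts lay within 1.5 times of 16.

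ZNF792 was the gene lost in 2 lines. In 22RV1 its strongest gene-end peak had a fold enrichment of 6.40, 11.1 and 11.9 in DMSO and 2.76, 4.45 and 4.25 with FHT-1015. In RD the values were 5.33, 6 and 6.22, against 3.58, 3.48 and no peak. In both lines each FHT-1015 value lay below each DMSO value. ZNF792 was picked because its strict peaks were lost there, so this order of the same peaks is no separate evidence. In MV411 ZNF792 had 11.8, 9.55 and 6.90 against 5.52, 6.77 and 11.5, and in DU4475 4.75, 4.71 and 5.06 against 6.81, 5.86 and 4.27, and these groups overlapped. A375 had 3.50, 4.18 and 5.22, none strict, against 2.27, 7.45 and 3.61, HCT116 a single strict DMSO peak of 8.86, and 92-1 6.40, 6.78 and no peak against 4.62 and no peak in 2 samples. ZNF792 was called in 15 of 21 DMSO and 6 of 21 FHT-1015 samples (exact stratified permutation test, two-sided, p = 0.00313, adjusted p = 0.340).

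ZNF208, in the ZNF101 to ZNF254 block, had gene-end peaks of 7.64, 10.8 and 12.4 in 22RV1 DMSO samples and of 3.96, 3.70 and 3.46 with FHT-1015, without overlap. It had no deposited gene-end peak in RD, A375, DU4475, HCT116 or MV411 under either treatment. ZNF100, in the same block, had 8.16, 6.77 and 5.64 in HCT116 DMSO samples and 5.26, 5.31 and no peak with FHT-1015. In 22RV1 and MV411 ZNF100 was strict in all 6 samples of each line. It was called in 11 DMSO and 6 FHT-1015 samples (exact p = 0.02, adjusted p = 0.610). ZNF784 in HCT116 had 5.26, 5.62 and 4.64 in DMSO and 10.3, 9.69 and 6.37 with FHT-1015, without overlap, while its groups overlapped in 22RV1, RD, A375, DU4475 and MV411. ZNF208 in 22RV1 and ZNF100 and ZNF784 in HCT116 were picked by their strict calls there, so the order of these values is no separate evidence.

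**Figure D5:**
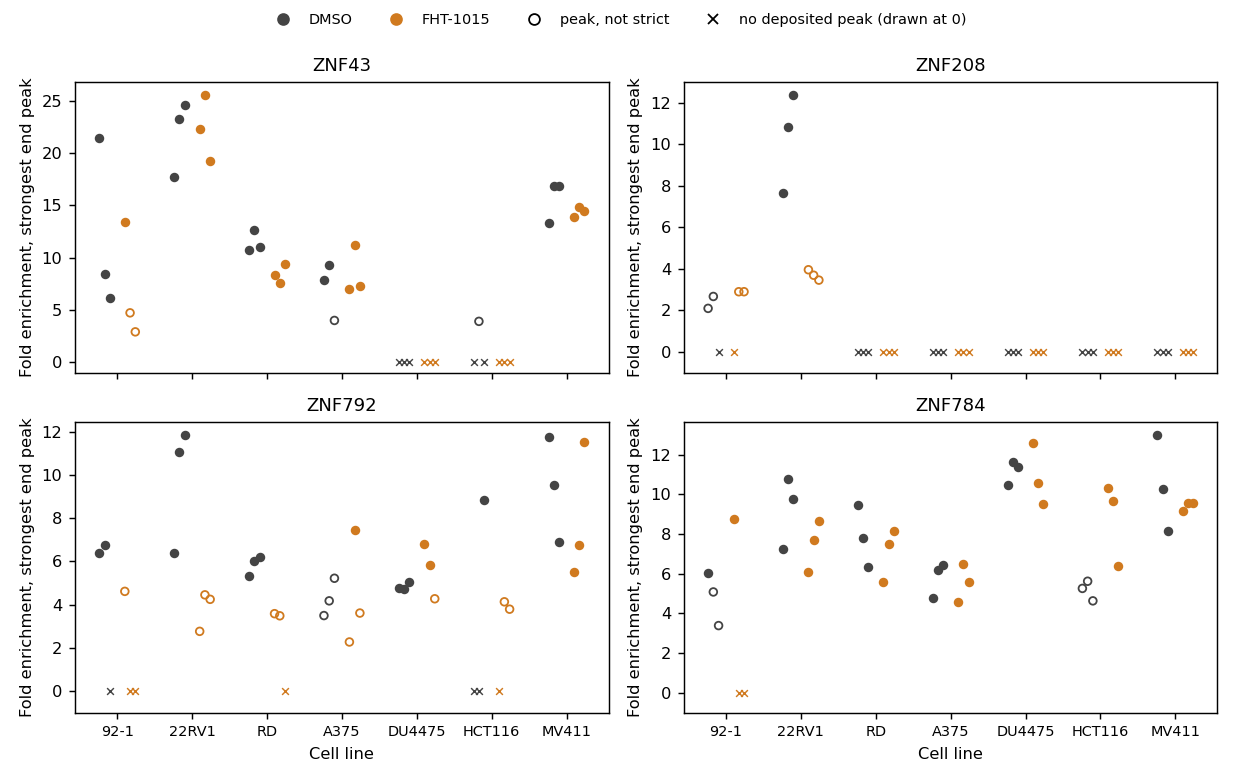
Fold enrichment of the strongest gene-end peak per sample, as deposited, for ZNF43, ZNF208, ZNF792 and ZNF784; filled points are strict peaks, open points weaker ones and crosses samples without a peak. In DU4475 ZNF43 and ZNF208 have 6 crosses each, ZNF792 has no strict FHT-1015 peak in 22RV1 and RD, and ZNF784 lies above 6 in HCT116 with FHT-1015.

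The other genes with the smallest exact p toward fewer FHT-1015 samples were ZNF223 (17 DMSO and 11 FHT-1015 samples), ZNF562 (19 and 13), ZNF382 and ZNF529, which share an end (8 and 3), ZNF816 (21 and 17), ZNF552 (20 and 15), ZNF285 (14 and 10) and ZNF254 (21 and 17). Their adjusted p-values from the exact test ran from 0.768 to 0.848. Toward more FHT-1015 samples stood ZNF784 (16 and 19), ZNF544 (12 and 15), ZNF329 (10 and 12), ZNF175 (11 and 13), ZNF350 (7 and 9), ZNF551 and ZNF766 (17 and 19 each), ZNF429 (10 and 12), ZNF738 (8 and 10) and ZNF585B (12 and 14). Each of these 10 had an adjusted exact p of 1. All these counts are at the outer ends. At its listed starts ZNF529 had a strict peak in 16 DMSO and 16 FHT-1015 samples. ZNF329 had one at its listed start in 14 and 12, the opposite order to its outer ends.

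Genes closed in DMSO mostly had no peak with FHT-1015 either. In DU4475 96 of the 113 closed genes had no deposited gene-end peak in the 3 FHT-1015 samples (85%, against 70.2% of all closed genes), in RD 28 of 34 (82.4%, against 68.7%), in 22RV1 16 of 20 (80%, against 56.2%) and in MV411 42 of 55 (76.4%, against 70.6%). In HCT116 it was 32 of 52 (61.5%, against 56.1%), in A375 21 of 36 (58.3%, against 67.2%) and in 92-1 7 of 13 (53.8%, against 54.8%).

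Counting the 30000 strongest peaks of each sample puts lists of unequal strength on 1 length, and there the order turned. Lost were ZNF234 and ZNF816 in 92-1 (0.656% of all) and 0 genes in 22RV1 (0.926%), RD (0.476%), A375 (0.34%), DU4475 (0.105%), HCT116 (0.0901%) and MV411 (0.355%). Gained were 18 in MV411 (7.32%, against 4.01% of all), 8 in A375 (3.25%, against 1.18%), 6 in 22RV1 (2.44%, against 1.29%), 3 in DU4475 (1.22%, against 0.19%), 2 in RD (0.386% of all), 1 in HCT116 (0.441%) and 0 in 92-1 (0.17%). ZNF155 was gained in A375 and MV411 and ZNF350 in 22RV1 and MV411, both named after their values were seen. A gain in such a list is a rise in rank within it, and strict losses elsewhere in the genome move ranks as well.

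In the gene bodies 97 of the 246 could be tested, and none was called, against 303 of 14375 genes in fewer FHT-1015 samples (2.11%) and 0 in more. Without the 92-1 samples 1 gene was called over the genome. At an unadjusted p under 0.05 ZNF568 and ZNF507 were in fewer FHT-1015 samples, 2 of 97 (17.7% of all tested genes), and 0 genes were in more (0.0139%). ZNF568 had a strict body peak in 9 DMSO and 3 FHT-1015 samples (exact p = 0.01, adjusted p = 0.121). The body of ZNF568 had the strict peak in 3 DMSO samples of 92-1, 2 of RD and 1 of DU4475 but in no FHT-1015 sample of these lines, and in 3 samples of either treatment in 22RV1. ZNF507, which has no KRAB domain, had 14 and 7 (exact p = 0.0138, adjusted p = 0.150), with 3 and 0 in RD. ZNF575 (21 and 17), ZNF83 (15 and 10) and ZNF616 (3 and 0) followed, and toward more samples ZNF415 and ZNF99 (0 and 2 each), ZNF101 (1 and 3), ZNF100 (0 and 1) and ZNF333 (1 and 2). ZNF83 lost its body peaks in 92-1 (3.09% of all genes) and RD (5.23%), ZNF507 and ZNF616 in RD, and ZNF568 and ZNF420 in 92-1. The bodies lost at least once numbered 3 in 92-1, 3 in RD and 1 in MV411 (5.42%), and 0 in 22RV1 (3.24%), A375 (0.801%), DU4475 (1.49%) and HCT116 (0.616%). Some of these body peaks can lie at inner starts. At the listed starts ZNF575 had 21 and 17 samples and ZNF83 15 and 10, the same counts as in their bodies. ZNF83 had a strict peak at its outer ends in 8 samples. The listed starts of ZNF575 and ZNF420 lay at least 2353 and 51935 bp inside.

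The corepressor machinery through which KRAB proteins act was scored from a list of 18 genes, among them TRIM28, SETDB1, ATF7IP, the HP1 genes CBX1, CBX3 and CBX5, the HUSH genes TASOR, MPHOSPH8 and PPHLN1, and MORC2. Of 17 testable at the gene ends, 0 were called in either direction and 0 had an unadjusted p under 0.05. TRIM28 had strict gene-end peaks in 20 DMSO and 19 FHT-1015 samples and SETDB1 in 21 and 19. In the bodies 0 of 16 were called, and ATRX stood lowest with 11 DMSO and 3 FHT-1015 samples (exact p = 0.0025, adjusted p = 0.0657). SETDB1, DAXX, HDAC1 and MPHOSPH8 were open at the gene end in 7 of 7 lines.

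The lists held 114291 to 431956 peaks per sample and 1412 to 121774 strict ones. Lineage markers of the labels were open at the gene end for 5 of 6 genes in RD and in MV411, 4 of 6 in DU4475 (GATA3 and ELF5 had no strict peak), 2 of 5 in 22RV1 and 1 of 6 in A375. In 92-1 0 of 6 and in HCT116 0 of 5 were open in 3 of 3 samples. In 92-1, A375 and HCT116 a line's own markers were open less often than the same genes in the other 6 lines, whose means were 2.5, 2.33 and 1.5 genes, so these markers do not set those 3 lines apart here. VIL1, CDX1, CDH17 and LGR5 had no strict gene-end peak in any HCT116 DMSO sample.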

How the data were processed

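ATAC-seq peak lists of 42 samples were used, 1 per sample. The submitters' processing notes name hg38, Bowtie2, Picard, MACS2, limma and HOMER, without versions or roles. Whether reads were shifted for the transposase is not stated in the notes used here. Per the labels' protocols, libraries were size-selected on both sides with beads. The deposited fold enrichment is a ratio, and the deposited p-value and q-value are on the −log10 scale; these values are the authors' and served to describe, rank or filter peaks within a list. No file gives total reads, so depth was read from pileups and backgrounds solved from the deposited fold and p (whole reads within 0.01 for 99.86% of peaks or more), with median backgrounds of 0.0341 to 2.79 reads.

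Summits were set against RefSeq genes of GRCh38.p14. For each gene, the number of samples with a call was compared between treatments by an exact permutation test within lines, two-sided, with Benjamini-Hochberg adjustment over all testable genes and a threshold of 0.05; the test was checked on simulated data. Named were genes past the threshold, the 10 smallest p in each direction at ends and the 5 in bodies, genes lost or gained in 2 or more lines, the 2 fixed lists, and the 5 densest and 5 longest bodies. Alternatives were all deposited peaks, q under 0.05, the 10000 and 30000 strongest peaks, thinned pileups, windows of 500 bp and 2 kb, the listed start, and left-out lines and samples. The members and lists were chosen with earlier results of these data known. Python 3.11.15, numpy 2.4.6, scipy 1.17.1 and pandas 2.3.3 were used.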

Additional observations from a re-analysis of the deposited data

How the results depend on the processing

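None of the 246 genes passed the adjusted threshold at gene ends or bodies, in either direction, under any of the alternatives run: all deposited peaks, q under 0.05, the 10000 and 30000 strongest peaks, thinned pileups without 92-1, windows of 500 bp and 2 kb, the listed start (ends only), without 92-1, without MV411 and without each sample in turn. At an unadjusted p under 0.05, 18 gene ends were in more FHT-1015 samples with the 10000 strongest peaks and 10 with the 30000 strongest. The share of all genes at this p was not counted under these settings, so these counts cannot be read as particular to the 246. The summed losses of 16 became 10 with all deposited peaks, 6 with q under 0.05, 3 with the 10000 and 2 with the 30000 strongest peaks, and ran from 16 to 42 with 1 sample left out. The summed gains of 1 became 6 with all deposited peaks, 24 and 38 with the 10000 and 30000 strongest, 2 with the 2 kb window, and ran from 1 to 3 with 1 sample left out. Of all genes, 0.155% (DU4475) to 4.74% (MV411) were gained per line with the 10000 strongest. With the 30000 strongest it was 0.17% (92-1) to 4.01% (MV411). The mean share with a strict gene-end peak, 55.7% in DMSO and 50.7% with FHT-1015, became 73.5% and 70.6% with all deposited peaks, 70.3% and 67.3% with q under 0.05, 16.2% and 23.7% with the 10000 strongest, and 65.4% and 59.6% at the listed start. With the 30000 strongest they were 45.0% and 51.6%, so that with both lists of equal length the share was higher with FHT-1015. With 1 sample left out the shares ran from 54.3% to 57.5% and from 49.2% to 53.2%. For the closed share of DU4475, 45.9%, the alternatives were chosen after seeing the data: 37.3% without the ZNF101 to ZNF254 block, 36.6% at the listed start, 55.7% with the 30000 strongest (all genes 44.7%, MV411 54.5%) and 80.5% with the 10000 strongest (all genes 63.8%, MV411 85%), and 46.3% to 47.6% with 1 DMSO sample left out. FHT-1015 minus DMSO samples turned sign with all deposited peaks for ZNF529 (1), ZNF784 (-2), ZNF175 (-1), ZNF350 (-2), ZNF429 (-1) and ZNF585B (-2), and with the 10000 strongest for ZNF223 (2), ZNF816 (4), ZNF552 (2) and ZNF350 (-1). The cause was not tested.

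Replicate numbers did not pair the samples: 4 of 21 same-numbered pairs had deviations correlated above 0.1 (range -0.119 to 0.270), and 6 of 21 DMSO samples correlated best with their own number. With the replicate number as a block 0 of the 246 genes were called at ends or bodies, and over all genes body calls moved from 303 to 1. Libraries with low backgrounds, HCT116 and 92-1, limit what can be called open there, and a missing strict peak in them does not show a closed gene.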
